A study of Mus musculus with 6 samples.

Results

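The cells that line blood vessels carry CD31 on their surface, and cells with CD31 were among those removed before RNA of mammary epithelial cells (MECs) was sequenced. The transcripts that remained of 10 endothelial markers were examined here, namely Pecam1, Cdh5, Esam, Emcn, Kdr, Flt1, Tek, Tie1, Eng and Vwf. They were taken by gene symbol from a count table of 55487 genes, and each symbol had 1 row. The MECs came from virgin female BALB/c mice at 10 weeks of age, 3 wild-type and 3 IL-21isoTg, with 1 library for each mouse and no treatment. The IL-21isoTg mice carry a transgene for a membrane-bound isoform of IL-21, which the authors describe as specific to T cells. Whether the epithelium also expressed it was not tested here. Digested mammary tissue was depleted with magnetic particles of cells that bound antibodies to CD45 (leukocytes), CD31 (endothelium) or CD140a (fibroblasts), and no undepleted cells are among the samples. The question was how much endothelial RNA the MEC preparations still held, and whether it differed between the genotypes.

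Endothelial cells are joined by VE-cadherin and CD31 and respond to vascular endothelial growth factor (VEGF) through receptor kinases on their surface. In the mammary gland, a capillary network runs around the ducts and alveoli and grows with them during development and pregnancy. Angiopoietins keep these vessels quiet or loosen them through the receptor Tek, and endothelial cells store von Willebrand factor for the capture of platelets.

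The total count on genes lay between 15902886 and 25719244 per library. A level is given here as CPM, the count relative to the library's summed counts over the genes that passed the filter on low counts. That sum was scaled with the TMM method of edgeR, and 3 counts, taken as the floor, equal 0.112 to 0.280 CPM. Il21, the gene of the transgene product, had 795, 216 and 131 counts in IL-21isoTg mice 1, 2 and 3 and 0, 0 and 37 in wild-type mice 1, 2 and 3, so that Il21 RNA was also found in wild-type mouse 3. The libraries also held RNA of salivary gland genes such as Bpifa2 and Smr3a. A list of 12 such genes took 22.5%, 6.50% and 15.4% of the counts in wild-type mice 1, 2 and 3 and 22.1%, 4.83% and 40.2% in IL-21isoTg mice 1, 2 and 3. Values without wild-type mouse 3 and without IL-21isoTg mouse 3 are therefore given beside the main result. Epithelial RNA was present in each library, since the epithelial gene Epcam had a level per exon kilobase of 307 to 521 CPM. Epcam does not tell mammary from salivary epithelium. How much of the epithelial RNA used as a reference below came from salivary tissue was not tested.

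Promoter sequences were available from RefSeq (build GRCm38.p6) for 6 of the 10 markers, and for 5 of them the window held at least 150 bases before the GENCODE gene start. These 150 bases are shown as a description, and a link between them and the levels of the markers was not tested. Capitals mark GGAA, the core that ETS transcription factors bind, or its reverse complement TTCC.
Kdr, chr5:75978459-75978608, minus strand: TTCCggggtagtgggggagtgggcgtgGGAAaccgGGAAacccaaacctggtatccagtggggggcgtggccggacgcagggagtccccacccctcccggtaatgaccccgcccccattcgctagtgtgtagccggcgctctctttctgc
Flt1, chr5:147726012-147726161, minus strand: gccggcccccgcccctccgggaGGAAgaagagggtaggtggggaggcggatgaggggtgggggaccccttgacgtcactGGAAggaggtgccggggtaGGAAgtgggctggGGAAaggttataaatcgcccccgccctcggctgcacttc
Tek, chr4:94739139-94739288, plus strand: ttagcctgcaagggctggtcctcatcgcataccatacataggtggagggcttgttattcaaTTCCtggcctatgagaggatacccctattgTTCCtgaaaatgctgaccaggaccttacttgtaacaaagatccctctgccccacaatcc
Eng, chr2:32646445-32646594, plus strand: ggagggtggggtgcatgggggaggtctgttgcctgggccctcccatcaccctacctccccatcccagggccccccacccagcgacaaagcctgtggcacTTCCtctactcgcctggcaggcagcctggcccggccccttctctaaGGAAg
Emcn, chr3:137340917-137341066, plus strand: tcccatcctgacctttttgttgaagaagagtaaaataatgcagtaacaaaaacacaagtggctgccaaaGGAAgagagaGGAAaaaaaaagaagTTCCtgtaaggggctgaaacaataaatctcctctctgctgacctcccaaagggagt
On either strand, GGAA occurred 4 times before Flt1, 3 times before Kdr and Emcn, and 2 times before Tek and Eng. Of 32851 RefSeq promoter windows of the same length, 80.8% held it at least once, with a median of 2 per window. The GATA motif AGATAA was in none of the 5 windows and in 5.65% of all windows. The TATA motif TATAAA was found before Flt1 and in 7.57% of all windows. These are matches of letters and not binding sites.

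All 10 markers were detected in all 6 libraries, with 63 to 2099 counts per gene and library, and all 10 passed the filter on low counts. Their summed level was 143, 345 and 154 CPM in wild-type mice 1, 2 and 3 and 489.9, 403 and 197 CPM in IL-21isoTg mice 1, 2 and 3. Wild-type mouse 2 thus lay among the IL-21isoTg mice, and IL-21isoTg mouse 3 lay near the other wild-type mice. Before scaling, the markers took 0.0142%, 0.0422% and 0.0170% of all counts in wild-type mice 1, 2 and 3. In IL-21isoTg mice 1, 2 and 3 they took 0.0458%, 0.0470% and 0.0133%, so that IL-21isoTg mouse 3 was then the lowest library. In bulk RNA, fewer endothelial cells and less RNA per endothelial cell cannot be told apart.

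The junction proteins came first. Pecam1 (ENSMUSG00000020717, chromosome 11 of GRCm38, 106654217 to 106750628, minus strand) encodes CD31 itself, the antigen of the depletion. Its level was 22.6, 45.7 and 20.6 CPM in wild-type mice 1, 2 and 3 and 86.2, 70.2 and 35.2 CPM in IL-21isoTg mice 1, 2 and 3. Only wild-type mouse 2 reached into the IL-21isoTg range. The means were 29.6 ± 14.0 CPM (SD, n = 3 mice) and 63.9 ± 26.1 CPM (SD, n = 3), and the fitted log2 difference was 1.11 ± 0.40 SE (adjusted p = 0.809 in the quasi-likelihood test of edgeR).

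Cdh5 (ENSMUSG00000031871, chromosome 8, 104101625 to 104144511, plus strand) encodes VE-cadherin, the adhesion molecule of endothelial adherens junctions. It measured 17.1, 27.6 and 16.1 CPM in the wild-type mice and 64.2, 48.8 and 28.4 CPM in the IL-21isoTg mice. On this scale, Cdh5 was the only marker whose genotypes did not overlap, and the gap between wild-type mouse 2 and IL-21isoTg mouse 3 was narrow. Relative to the unscaled total counts the genotypes overlapped. Cdh5 had 574 of 17020403 counts in wild-type mouse 2 and 304 of 15902886 in IL-21isoTg mouse 3. The fitted log2 difference between the genotypes was 1.22 ± 0.33 SE (adjusted p = 0.809; exact permutation test with both sides counted, p = 0.1, the lowest value possible with 3 mice per genotype). Esam (chromosome 9, 37528078 to 37538319, plus strand), an immunoglobulin-type adhesion molecule of endothelial tight junctions and platelets, measured 5.82, 16.0 and 7.87 CPM in wild-type and 30.8, 17.3 and 8.58 CPM in IL-21isoTg mice. IL-21isoTg mouse 3 was close to wild-type mouse 3, and the fitted log2 difference between the genotypes was 0.94 ± 0.51 SE (adjusted p = 0.809). Emcn (chromosome 3, 137341067 to 137432185, plus strand) encodes endomucin, a sialomucin of capillaries and veins. Its level was 4.65, 12.1 and 4.59 CPM in the wild-type mice and 15.5, 13.0 and 6.90 CPM in the IL-21isoTg mice, and the groups overlapped through wild-type mouse 2 (log2 fold change 0.74 ± 0.46 SE, adjusted p = 0.816).

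Of the VEGF receptors, Kdr varied more between mice of the same genotype than any other marker. Its gene (chromosome 5, 75932827 to 75978458, minus strand) encodes VEGFR2, the main signalling receptor for VEGF-A. It had 7.71, 47.5 and 14.0 CPM in wild-type mice 1, 2 and 3 and 66.0, 40.8 and 13.2 CPM in IL-21isoTg mice 1, 2 and 3. The level differed 6.16-fold among wild-type mice and 4.98-fold among IL-21isoTg mice, against a 1.73-fold ratio of the genotype means. The fitted log2 difference between the genotypes was 0.80 ± 0.73 SE (adjusted p = 0.856). Flt1 (chromosome 5, 147561604 to 147726011, minus strand) encodes VEGFR1, which binds VEGF-A, VEGF-B and placental growth factor and has a soluble form that traps VEGF. It had 8.84, 40.6 and 22.3 CPM in wild-type and 65.9, 39.2 and 24.3 CPM in IL-21isoTg mice. Wild-type mouse 2 again lay above 2 of the IL-21isoTg mice (log2 fold change 0.85 ± 0.54 SE, adjusted p = 0.817).

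Tek (chromosome 4, 94739289 to 94874976, plus strand) encodes TIE2, the receptor of the angiopoietins. Its level was 3.56, 15.6 and 10.8 CPM in wild-type mice and 16.0, 15.4 and 11.6 CPM in IL-21isoTg mice, so that wild-type mouse 1 stood below the other 5 libraries. The fitted log2 difference between the genotypes was 0.52 ± 0.47 SE (adjusted p = 0.854). Tie1 (chromosome 4, 118471191 to 118490061, minus strand) encodes the related receptor that pairs with TIE2 at the cell surface. It had 7.04, 17.5 and 5.31 CPM in wild-type and 28.3, 17.8 and 5.88 CPM in IL-21isoTg mice. Here IL-21isoTg mouse 3 was as low as the low wild-type mice (log2 fold change 0.81 ± 0.61 SE, adjusted p = 0.830).

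Eng (chromosome 2, 32646595 to 32682669, plus strand) encodes endoglin, a co-receptor for ligands of the TGF-β and BMP family. It had 18.2, 48.9 and 30.2 CPM in wild-type mice and 58.9, 62.1 and 21.7 CPM in IL-21isoTg mice, and its genotypes overlapped (log2 fold change 0.56 ± 0.45 SE, adjusted p = 0.843). The Eng exons share 61 bases with exons of Fpgs on the opposite strand, which had 442 to 640 counts per library. The library kit keeps the strand, but whether the counting used it is not given in the sources used here. Vwf (chromosome 6, 125546774 to 125686679, plus strand) encodes von Willebrand factor, which binds platelets to the injured vessel wall and is made in endothelial cells and megakaryocytes. Its level was 47.4, 73.4 and 22.3 CPM in wild-type mice and 58.2, 78.1 and 41.1 CPM in IL-21isoTg mice. This was the smallest difference among the 10 markers, and the fitted log2 difference was 0.31 ± 0.41 SE (adjusted p = 0.903).

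**Figure D1:**
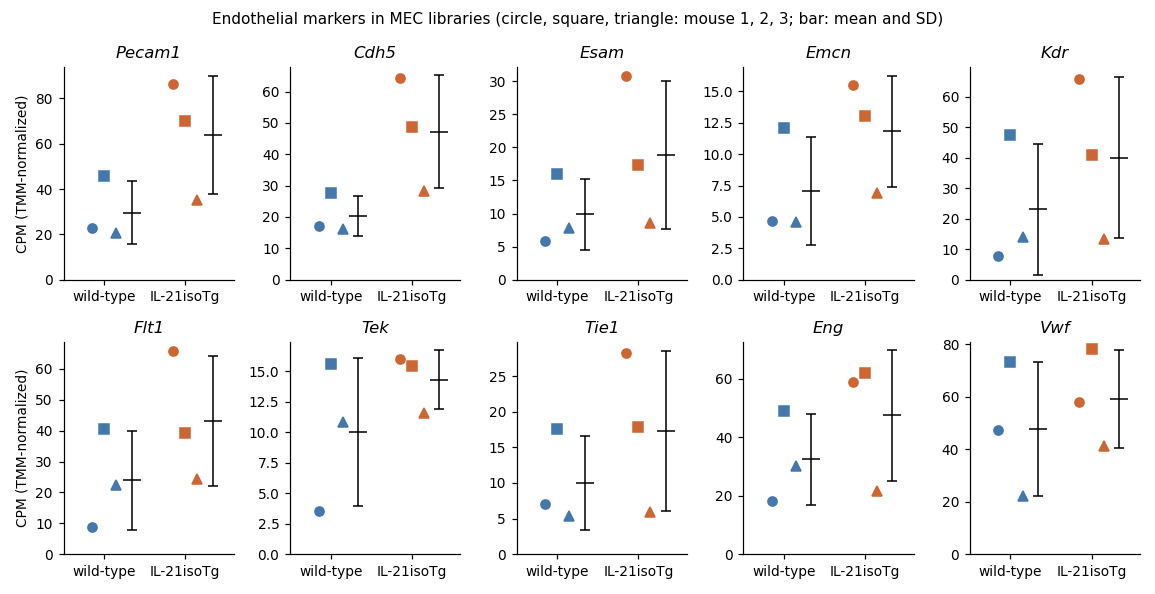
TMM-normalized CPM of each of the 10 endothelial markers (vertical axis, starting at 0) in 3 wild-type and 3 IL-21isoTg mice, with symbols for mouse 1, 2 and 3 and bars for the mean and SD. IL-21isoTg mouse 1 is the highest library for 8 markers, wild-type mouse 2 lies above IL-21isoTg mouse 3 for 9, and only Cdh5 separates the genotypes on this scale.

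Across the 10 markers, IL-21isoTg mouse 1 had the highest level for 8 and IL-21isoTg mouse 2 for Eng and Vwf. After scaling, the lowest level was found in wild-type mouse 1 for 5 markers and in wild-type mouse 3 for the other 5. IL-21isoTg mouse 1 exceeded all wild-type mice for 9 markers. Wild-type mouse 2 exceeded IL-21isoTg mouse 3 for 9 markers. The spread among wild-type mice was wider than the ratio of the genotype means for 9 markers, all but Cdh5, and the spread among IL-21isoTg mice for 8, all but Cdh5 and Tek.

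In the comparison of the genotypes, all 10 markers had a log2 fold change above 0 in IL-21isoTg MECs, with a median of 0.81, against a median of -0.02 over the 17165 genes tested, of which 47.9% were above 0. No marker and no other gene had an adjusted p under 0.05, since the quasi-likelihood test of edgeR called 0% of the genes tested. The adjusted p-values of the markers were 0.809 to 0.903. At an unadjusted p of the edgeR test under 0.05, 2 markers of 10 were higher, Pecam1 and Cdh5, as were 3.19% of all genes tested. After scaling, the genotypes did not overlap, with IL-21isoTg higher, in 1 of 10 markers and in 5.54% of all genes tested. The Wald test of DESeq2 and the likelihood ratio test of edgeR called 0.472% and 0.379% of all genes, and 0 of the markers, with lowest adjusted p-values of 0.0923 and 0.145 for Cdh5. The 10 markers are measured in the same 6 libraries and were not independent of each other.

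The size of the difference rested on single mice. Without wild-type mouse 2 the median log2 fold change of the markers was 1.47, and 7 of 10 were higher at an unadjusted p under 0.05, against 3.78% of all genes in that fit. Without IL-21isoTg mouse 3 the median was 1.18, with 4 of 10 markers and 3.51% of all genes. Without IL-21isoTg mouse 1 it was 0.41, with 1 marker and 1.88% of all genes. Each of the other fits also had 1 marker under 0.05. The median was 0.50 without wild-type mouse 1 (3.72% of all genes), 0.56 without wild-type mouse 3 (2.03%) and 0.79 without IL-21isoTg mouse 2 (5.12%). Without both wild-type mouse 3 and IL-21isoTg mouse 3, a choice made after the data were seen, the median was 0.93. No marker had an adjusted p under 0.05 in any of these fits.

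**Figure D2:**
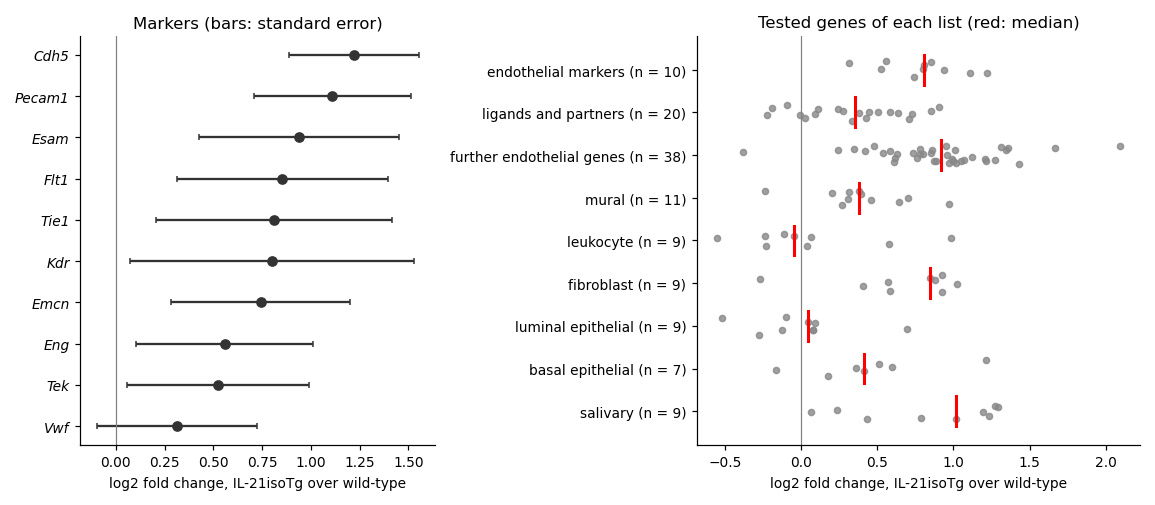
Left, the log2 fold change of each endothelial marker between IL-21isoTg and wild-type MECs with its standard error (horizontal axis), from 0.31 for Vwf to 1.22 for Cdh5. Right, the log2 fold changes of the tested genes of each marker list, with each point 1 gene and the red line the median, which is 0.81 for the endothelial markers, 0.92 for the further endothelial genes and 0.04 for luminal epithelial genes.

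The markers were set against Pecam1 within each library, a ratio that does not depend on the scaling of library sizes. Cdh5 had 0.603 to 0.806 counts per Pecam1 count, so the ratio of the 2 main junction genes differed at most 1.34-fold between libraries. Emcn followed with 0.180 to 0.264, and its ratio was lower in each IL-21isoTg mouse (0.180, 0.185 and 0.196) than in each wild-type mouse (0.205, 0.264 and 0.223). No other ratio to Pecam1 separated the genotypes, and the exact permutation test gave p = 0.1 for Emcn, its lowest possible value. Pecam1, the denominator, was itself higher on average in the IL-21isoTg mice. The ratio of Esam differed 1.57-fold. In contrast, the ratios of Tek, Vwf and Kdr differed 3.35-fold, 3.10-fold and 3.05-fold. Vwf had 2.1 counts per Pecam1 count in wild-type mouse 1 but 0.675 in IL-21isoTg mouse 1. The sister receptors Tie1 and Tek did not keep a fixed ratio either. There were 1.97, 1.12 and 0.490 Tie1 counts per Tek count in wild-type mice 1, 2 and 3 and 1.76, 1.16 and 0.508 in IL-21isoTg mice 1, 2 and 3. Kdr over Flt1 was 0.872, 1.17 and 0.628 in wild-type and 1.00, 1.04 and 0.544 in IL-21isoTg mice. Both receptor pairs were therefore lowest in ratio in mouse 3 of each genotype, and neither ratio separated the genotypes.

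**Figure D3:**
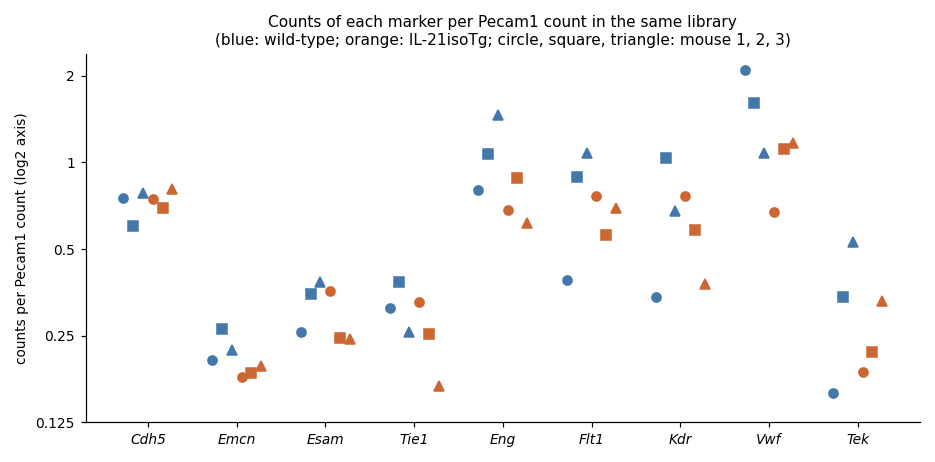
Counts of each of the other 9 markers per Pecam1 count in the same library (vertical axis, log2 scale), by mouse and genotype, ordered from the narrowest to the widest range. Cdh5 stays between 0.603 and 0.806 in all 6 libraries, whereas Tek runs from 0.157 to 0.527.

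Levels between genes were compared per length, as CPM per kilobase of merged exons, averaged over the 6 libraries. Eng was highest with 9.88, followed by Cdh5 with 8.02, Pecam1 with 7.51 and Esam with 5.02. Lower levels were found for Kdr (3.49), Vwf (3.33), Tie1 (2.77), Tek (2.58), Flt1 (2.48) and Emcn (1.75). Neighbours in this order differed by more than the SD of their difference over the libraries only between Pecam1 and Esam and between Esam and Kdr, and both held in 6 of 6 libraries. The mean level of Eng exceeded that of 76.0% of all genes tested and that of Emcn exceeded 33.5%, so the markers lay in the middle of the range of expressed genes.

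The transcripts of the 3 depletion antigens were compared with Epcam. Per exon kilobase, Pecam1 had 4.76 ± 2.24 CPM (SD, n = 3) in wild-type and 10.3 ± 4.19 CPM (SD, n = 3) in the IL-21isoTg mice. Pdgfra, which encodes CD140a, had 3.47 ± 1.69 and 5.14 ± 0.836 CPM, and the fitted log2 difference was 0.57 ± 0.37 SE (adjusted p = 0.820). Ptprc, which encodes CD45, had 0.330 ± 0.199 and 0.342 ± 0.148 CPM (log2 fold change 0.04 ± 0.54 SE, adjusted p = 0.993). Per length, Ptprc was thus the lowest of the 3 antigens on average in both genotypes. Relative to Epcam, Pecam1 made up 0.698%, 2.07% and 0.841% in wild-type mice 1, 2 and 3 and 4.50%, 2.35% and 1.5% in IL-21isoTg mice 1, 2 and 3. The 10 markers together had 13.8, 39.7 and 16.1 counts per 1000 counts of luminal and basal epithelial genes in wild-type mice and 57.1, 32.1 and 21.2 in IL-21isoTg mice, and the genotypes overlapped. Per 1000 counts of fibroblast genes the markers had 72.0, 97.5 and 48.3 counts in wild-type and 96.0, 91.1 and 44.2 in IL-21isoTg mice, with nearly equal means of 72.6 ± 24.6 and 77.1 ± 28.6 (SD, n = 3 each). How many endothelial cells were removed could not be measured without undepleted cells.

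A list of 39 further endothelial genes was read in the same way. One of them, the lymphatic chemokine gene Ccl21a, had its symbol on several identifiers and was left out, and the other 38 were all tested. Of these, 37 had a log2 fold change above 0, with a median of 0.92, and the exception was the lymphatic transcription factor gene Prox1 with -0.38. None had an adjusted p under 0.05, and 9 of 38 were higher at an unadjusted p under 0.05, against 3.19% of all genes tested. Without IL-21isoTg mouse 1 this number was 2 of 38 (1.88% of all genes), without IL-21isoTg mouse 3 it was 19 (3.51%), and without wild-type mouse 2 it was 21 (3.78%). The 9 genes were Cldn5, Robo4, Mmrn2, Rasip1, Nos3, S1pr1, Thbd, Apln and Ackr1. After scaling, the genotypes did not overlap for 4 of the 38, Rasip1, Nos3, Thbd and Ackr1, and for 5.54% of all genes tested. Relative to the unscaled total counts they overlapped for each of these 4. Rasip1, Nos3 and Thbd had 160, 80 and 869 of 17020403 counts in wild-type mouse 2. They had 100, 51 and 560 of 15902886 in IL-21isoTg mouse 3. Ackr1 had 135 of 22291180 counts in wild-type mouse 1 and 78 in IL-21isoTg mouse 3. Cldn5, the claudin of endothelial tight junctions, had 2.57, 3.65 and 1.03 CPM in wild-type and 11.6, 7.89 and 3.36 CPM in IL-21isoTg mice (log2 fold change 1.67 ± 0.57 SE, adjusted p = 0.809). Apln, which encodes the ligand apelin of sprouting vessels, had the largest log2 fold change of the list, 2.09 (SE 0.68). It had 5.90 and 4.84 CPM in IL-21isoTg mice 1 and 2, but 0.746 CPM in mouse 3, below the 0.765 to 1.01 CPM of the wild-type mice. Thbd, which encodes the anticoagulant thrombomodulin, had 20.8, 41.8 and 30.2 CPM in wild-type and 64.0, 51.4 and 52.2 CPM in IL-21isoTg mice (log2 fold change 0.85 ± 0.25 SE). Per exon kilobase the highest levels of the list were those of Plvap, the diaphragm protein of fenestrated capillaries, with 28.3 CPM, and of Rgcc with 26.3 CPM and Thbd with 11.7 CPM.

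To find genes with a pattern like that of the markers, the log2 CPM of each gene (pseudocount 0.5) was centred over the 6 libraries and compared with that of the summed markers. The measure was the root mean square difference on the log2 scale, with a median of 0.75 over all genes tested. Outside the lists, the nearest genes were Jam2 (0.041), Fam167b (0.086), Abcb1a (0.11), Fgd5 (0.14) and Dkk3 (0.17). Jam2 encodes a junctional adhesion molecule and Abcb1a an efflux transporter of capillaries in the brain. The Jam2 level was 7.49, 19.1 and 8.82 CPM in wild-type and 28.6, 23.5 and 11 CPM in IL-21isoTg mice. Fam167b lay below the floor of 3 counts in wild-type mouse 1, with 0.045 CPM, and just above it in wild-type mouse 3, with 0.18 CPM. When each marker was set against the sum of the other 9, Emcn ranked 2, Esam 23 and Pecam1 27 among the 17165 genes tested. Kdr ranked 1568 and Vwf 1478, and their patterns were the least like those of the other markers. Of the 38 further endothelial genes, 15 were among the 200 genes nearest to the summed markers, which is 39.5% of the list, while 200 genes are 1.17% of all tested. Among them were Ramp2, Fli1, Clec14a and Plvap. Ackr1, Procr, Lyve1, Selp and Rgcc of the same list lay beyond the median difference of all genes tested, with Rgcc at rank 15858. These are descriptions over 6 libraries and not tests.

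Ligands and partners of the markers are made by many cell types. Of 24 such genes 20 were tested, and 16 had a log2 fold change above 0, with a median of 0.35. None had an adjusted p under 0.05. Vegfa, which encodes the main ligand of VEGFR2, had 237, 122 and 215 CPM in wild-type and 181, 230.3 and 281 CPM in IL-21isoTg mice, and it was lowest in wild-type mouse 2, where Kdr was high (log2 fold change 0.27 ± 0.28 SE, adjusted p = 0.872). Pgf, which encodes placental growth factor, a ligand of VEGFR1, had 2.35, 9.03 and 5.89 CPM in wild-type and 13.5, 10.8 and 6.71 CPM in IL-21isoTg mice (log2 fold change 0.85 ± 0.48 SE, adjusted p = 0.809). For the ligands of TIE2, Angpt1 had 23.1 ± 13.2 CPM (SD, n = 3) in wild-type and 29.9 ± 16.0 CPM (SD, n = 3) in IL-21isoTg mice, and Angpt2 had 3.50 ± 0.413 and 4.73 ± 1.04 CPM. Their log2 fold changes of 0.38 and 0.44 had standard errors of 0.53 and 0.30. Nrp2, a VEGF co-receptor, was the only gene of the list with an unadjusted p under 0.05, with 12 ± 1.87 and 18.7 ± 3.84 CPM (log2 fold change 0.64 ± 0.23 SE, adjusted p = 0.809). Bmp10, a ligand of endoglin, had 0 counts in every library. Of the catenins, which bind VE-cadherin and also the E-cadherin of epithelium, 3 had the highest levels of the list per exon kilobase, with 89.5 CPM for Ctnnb1, 52.4 for Ctnna1 and 52.0 for Jup, whereas Ctnnd1 had 3.78. The log2 fold changes of the 4 catenin genes lay between -0.23 and -0.01.

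Markers of other cells were read in the same libraries. Of 9 fibroblast genes, 8 had a log2 fold change above 0. After scaling, their summed level of 4423 to 5103 CPM in IL-21isoTg mice did not overlap the 1987 to 3538 CPM of wild-type mice. Relative to the unscaled total counts the genotypes overlapped. The shares were 0.198%, 0.433% and 0.353% in wild-type mice 1, 2 and 3 and 0.477%, 0.516% and 0.300% in IL-21isoTg mice 1, 2 and 3. In wild-type and IL-21isoTg mice, Col1a1 had 572 ± 157 and 1163 ± 203 CPM and Col3a1 806 ± 197 and 1528 ± 44.6 CPM. The fibroblast gene below 0 was Dcn, with 738 ± 236 and 612 ± 68.1 CPM and a log2 fold change of -0.27 ± 0.28 SE. Of 11 mural cell genes, 10 were above 0, and the summed level was 390.4 to 865 CPM in wild-type and 608 to 1072 CPM in IL-21isoTg mice. In this list Myh11, a gene of smooth muscle that myoepithelial cells also use, and Notch3 were highest. The adipocyte genes stood out in 1 library, with a summed level of 164 CPM in IL-21isoTg mouse 1, 16.8 CPM in mouse 2 and 0.631 to 4.72 CPM in the other 4 libraries, mainly through Cfd. The salivary list had log2 fold changes above 0 in 9 of 9 genes tested, at a median of 1.02, and 1 of its 12 genes had 0 counts in all libraries. The summed levels overlapped between the genotypes and were nearly equal in wild-type mouse 1 and IL-21isoTg mouse 1, with IL-21isoTg mouse 3 above both. The part of fibroblast, mural, adipocyte and salivary RNA in the endothelial values was not tested.

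Markers of blood cells were read in the same way. Platelets share Pecam1, Esam and Vwf, and of 8 platelet genes 2 were tested, Pf4 with at most 1.83 CPM and Itga2b with at most 6.82 CPM, whereas 2 of the 8 had 0 counts in every library. Their summed level was 5.05 to 5.80 CPM in wild-type and 4.73 to 10.0 CPM in IL-21isoTg mice. The 11 leukocyte genes summed to 22.6 to 46.6 and 32.1 to 43.6 CPM, with 4 of the 9 tested above 0 and Lyz2 and Cd68 highest per length. Wild-type mouse 2, which had the most endothelial RNA of its genotype, had the lowest leukocyte sum of all libraries. The erythroid genes were highest in wild-type mouse 1 (77.5 CPM) and IL-21isoTg mouse 1 (103 CPM), at opposite ends of the endothelial range. Luminal epithelial genes, Krt8 and Krt18 foremost, summed to 7920 ± 870 CPM (SD, n = 3) and 7904 ± 2123 CPM (SD, n = 3). Basal genes, led by Acta2 and Krt17, summed to 1632 ± 216 and 2232 ± 541 CPM.

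**Figure D4:**
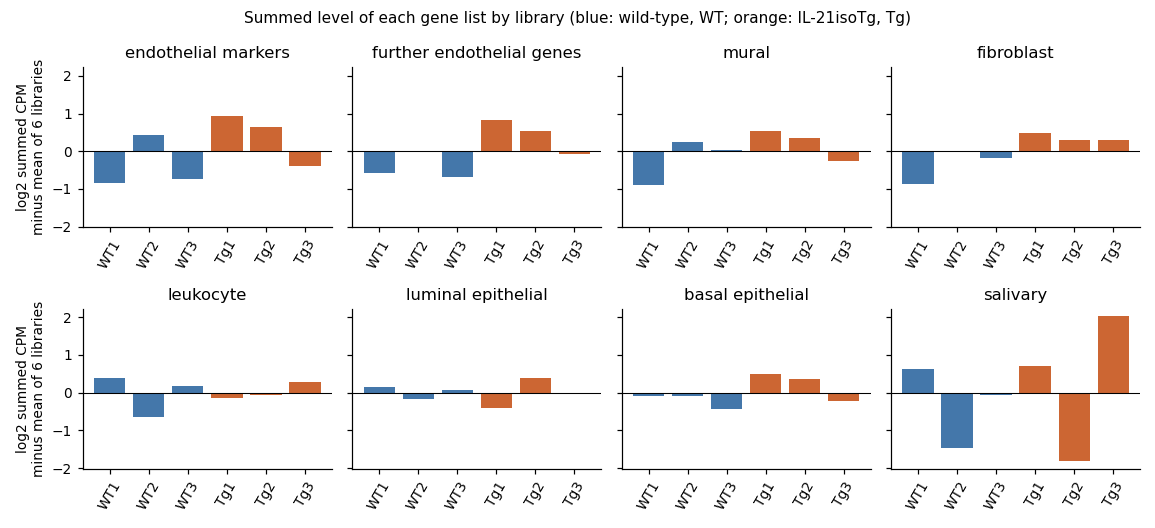
Summed CPM of each gene list in each library on a log2 scale, relative to the mean of the 6 libraries (vertical axis), with blue for wild-type (WT) and orange for IL-21isoTg (Tg) mice. Endothelial markers and further endothelial genes are high in Tg1 and Tg2 and low in WT1 and WT3, and salivary genes are highest in Tg3. For the endothelial markers, WT2 (345 CPM) lies above the mean and Tg3 (197 CPM) below it, against the genotype.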

How the data were processed

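RNA of MECs, from 3 mice of each genotype, was sequenced by the authors as poly(A)-selected, strand-keeping libraries with 150-bp paired-end reads. The authors deposited raw read counts per gene, used here, with a rescaled copy of the counts and a table of their own comparison (fold changes, p-values and adjusted p-values), both not used here. The submitters' processing notes name Trimmomatic 0.38, HISAT2 2.1.0, featureCounts 1.6.3, DESeq2 1.24.0 and the build mm10. The settings are not given in the sources used here.

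Genes were filtered with filterByExpr of edgeR 4.0.16 in R 4.3.3 (minimum count 10, minimum total 15), scaled with TMM and compared with the robust quasi-likelihood test, with genotype as the only term and Benjamini-Hochberg adjustment over the 17165 genes tested (threshold 0.05). Positions and exon lengths came from GENCODE M21 (GRCm38), and promoter sequences from RefSeq. The fits were also run on simulated counts, and the outcome is not reported here. DESeq2 1.42.0, limma 3.58.1 (voom), the likelihood ratio test, other scalings and filters, a block for the mouse number and fits without single mice were alternatives. Total counts were 15902886 to 25719244 per library, and floors cover counting error only, not the spread between mice. Replicates are separate mice as the labels number them, and no sample was left out.

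The markers and gene lists were chosen with earlier results of these data known. Named genes are all 10 markers, the depletion antigens, Vegfa, Pgf, Angpt1 and Angpt2 as ligands, genes of the 2 endothelium-related lists with an unadjusted p under 0.05 or among the 3 highest, the 2 highest of each other list, and the 5 nearest in pattern. Genes named at the end of a range, such as Prox1, Dcn, Fpgs, Epcam, Bmp10 and those near or far in pattern within a list, were chosen after their values were seen.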

Additional observations from a re-analysis of the deposited data

How the results depend on the processing

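Under 16 alternatives, 1 of them (leaving out mouse 3 of both genotypes) chosen after seeing the data, 0 markers were called at an adjusted p under 0.05 in either direction. Of 160 log2 fold changes of single markers, 159 kept their sign, in fits that share all or most of the same mice. The exception was Vwf, with -0.028 without wild-type mouse 3 and up to 0.77 with another mouse left out. The log2 ratio of the summed markers was 0.76, with 0.75 to 0.79 under other scalings, 0.49 to 1.29 with 1 mouse left out in turn, and 0.87 without mouse 3 of both genotypes. Over all genes, 0 were called higher and 0 lower. This count became 14 higher without a filter on low counts, 72 higher and 9 lower with the Wald test of DESeq2, and 52 higher and 13 lower with the likelihood ratio test of edgeR. It was 0 to 6 higher with 1 mouse left out in turn and 6 higher without mouse 3 of both genotypes. With the replicate number as a block, 0 genes were called, the median log2 fold change of the markers was 0.82, and that of Cdh5 was 1.18 (adjusted p = 0.992). Over all genes tested, same-numbered mice did not deviate together (r = -0.22, 0.07 and -0.06 for mice 1, 2 and 3). Tie1 counts per Tek count were nevertheless close in same-numbered mice, whereas the summed markers of the mice numbered 1 were far apart. Whether the numbers mark a shared preparation cannot be decided from these values. The lowest count of a marker in a library was 63, so no marker was near the floor of 3 counts.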
